A study of Mus musculus with 4 samples.

Results

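The genes described are 44 genes of DNA double-strand break repair and of the Fanconi anaemia pathway, measured by RNA sequencing in mouse Th17 cells, a helper T cell class known for making IL-17. They were taken by name: each symbol was looked up in GENCODE mouse release M21 and its versioned identifier was found in the authors' deposited table of 55450 genes. All 44 were found, and all 44 had a fold change, as did 29383 genes in all. They fall into 5 roles, with 12 genes of homologous recombination, 6 of end resection and helicases, 10 Fanconi genes, 9 of end joining and 7 of damage signalling.

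The cells compared were 2 cultures that received the retroviral vector PSIN with an Adarb1 guide (sgAdarb1) and 2 that received empty PSIN vector, and both groups carried a Cas9 transgene. ADAR2, the product of Adarb1, turns adenosines of double-stranded RNA into inosines. The mice were 8 to 12 weeks old, and their naive CD4 T cells were transduced after 24 h of activation through CD3 and CD28 and then kept for 72 h with TGF-β and IL-6. According to the design text 2 donor mice each gave 1 culture per group. The sgAdarb1 cultures therefore differ from the empty vector cultures in the guide and in any cut it directed, because the empty vector held no guide. For 2 of the 4 samples the title and the treatment tag name different groups, since the tag gives both first replicates as control and both second replicates as sgAdarb1. Had the authors grouped by the tag, the fold changes would compare the second replicate with the first. Groups are named here from the titles, which go with the design text, and the grouping behind the fold changes is the authors' own. The table names no numerator, so fold changes are read as sgAdarb1 over empty vector from the wording of the design text. All signs below would flip under the other reading. Values per culture were not used, because the names of the 4 columns that hold them match no sample label, so each gene has 1 fold change with its standard error (SE).

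A double-strand break can be repaired along several routes. In homologous recombination the broken ends are cut back to single strands, taken over by BRCA2 and its partners, and copied from the sister chromatid, which restricts the route largely to S and G2 phase. In end joining the Ku proteins, the gene products of Xrcc5 and Xrcc6, hold the ends and a ligase seals them, in any phase of the cell cycle. The Fanconi proteins unhook crosslinks between DNA strands and pass the resulting break to recombination. Breaks made by Cas9 are mostly sealed by end joining, and lymphocytes also need this route to assemble their antigen receptor genes.

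No repair gene passed the test, and most of the 44 lay slightly on the negative side. In the authors' deposited table (DESeq2) 0 of 44 members had an adjusted p below 0.05, as did 0 of all 29383 genes (0%), and all 44 members shared an adjusted p of 1.00. An unadjusted p below 0.05 was given to 2 members, both negative, in the authors' deposited table. Over all genes the same rule took 0.208%, split into 0.109% negative and 0.0987% positive, and over the 14547 genes of a mean normalized count (counts divided by size factors, averaged over the libraries) of 10 or more it took 0.412%, split into 0.213% negative and 0.199% positive. Most such genes had high means: at a mean of 500 or more it took 30 negative and 26 positive of 5767 genes. Both members taken were among the 23 members with such a mean. Evenly spread p-values would put 5% of genes below 0.05, which is 1469 of the 29383, where 61 were, and the SD of the Wald statistic (fold change over SE) was 0.51 over these genes. The deposited SEs were thus wide against the fold changes of most genes, so an interval that spans 0 does not show that a gene did not differ. Of the 44 members 32 had a negative log2 fold change, against 49.5% of the genes with a mean of 10 or more. The median of the members was -0.09 on the log2 scale, and that of those genes was 0.00. Homologous recombination genes had a median of -0.14 and resection and helicase genes one of -0.13, and the medians of the other roles lay between -0.07 and -0.04. The order of the roles changed with the members kept: without those that overlap a gene on the opposite strand the medians were -0.12 for recombination and -0.16 for resection, and at a minimum mean of 500 that of Fanconi genes (-0.14) lay below that of resection (-0.11).

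**Figure D1:**
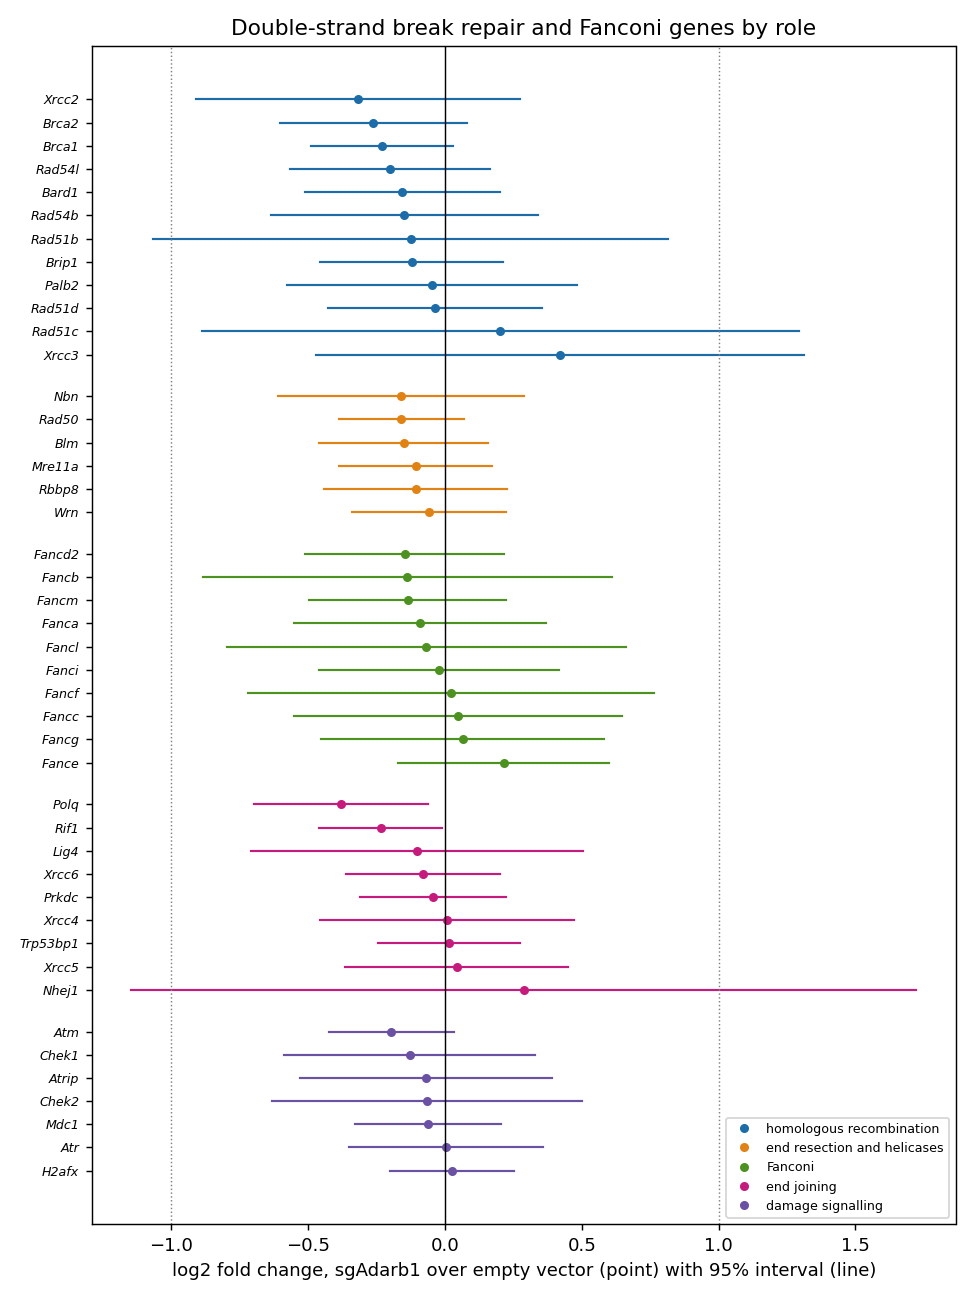
Log2 fold change of each of the 44 members, sgAdarb1 over empty vector (horizontal axis), as points with 95% intervals, grouped and coloured by role; dotted lines mark a log2 difference of 1 either way. The intervals of Polq and Rif1 alone leave out 0, and 40 of the 44 intervals lie between the dotted lines.

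The core genes of homologous recombination were 10 negative and 2 positive. Brca1, whose product starts repair by recombination and tags proteins with ubiquitin together with that of Bard1, lay at -0.23 ± 0.13 (log2, SE) (mean normalized count 1524) in the authors' deposited table (unadjusted p = 0.0817, DESeq2). Its partner Bard1 lay at -0.16 ± 0.18 in the authors' deposited table. Brca2, which acts on the single strands during strand exchange, lay at -0.26 ± 0.17 (mean normalized count 928) in the authors' deposited table. Brca1 and Brca2 were thus on the same side, and the interval of each spans 0. Palb2, which bridges the products of Brca1 and Brca2, was nearer to 0 at -0.05 ± 0.27 in the authors' deposited table. Brip1, a helicase bound by BRCA1 and also counted as a Fanconi gene, lay at -0.12 ± 0.17 in the authors' deposited table.

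The accessory genes Rad51b, Rad51c, Rad51d, Xrcc2 and Xrcc3, whose products form complexes that assist strand exchange, did not share a direction. Xrcc2 lay at -0.32 ± 0.30 and Rad51d, which acts with it in the same complex, at -0.04 ± 0.20 in the authors' deposited table. Xrcc3 had the highest value of all members at 0.42 ± 0.45, and its complex partner Rad51c lay at 0.20 ± 0.56 in the authors' deposited table. Rad51b lay at -0.12 ± 0.48 in the authors' deposited table. The 3 last named had means of only 94.7 (Xrcc3), 60.6 (Rad51c) and 81.7 (Rad51b) normalized counts in the authors' deposited table, and their intervals, with that of Nhej1, are those that reach a log2 difference of 1. The DNA translocase genes of this route lay at -0.20 ± 0.19 (Rad54l) and -0.15 ± 0.25 (Rad54b) in the authors' deposited table.

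All 6 genes of end resection and helicases were negative, over a narrow range from -0.16 to -0.06. The complex that finds ends and begins to trim them had its nuclease gene Mre11a at -0.11 ± 0.14, the structural subunit gene Rad50 at -0.16 ± 0.12 and the third subunit gene Nbn at -0.16 ± 0.23 in the authors' deposited table. Rbbp8, whose product CtIP switches on this nuclease, lay at -0.11 ± 0.17 in the authors' deposited table. The RecQ helicase genes Blm, which dissolves crossed recombination intermediates, and Wrn lay at -0.15 ± 0.16 and -0.06 ± 0.14 in the authors' deposited table. None of the 6 intervals leaves out 0.

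Fanconi genes were divided. Of the 10, 6 were negative and 4 positive, with a median of -0.05. Each member was counted in 1 role only. Brip1, and any other recombination member that is also counted as a Fanconi gene, is therefore not among the 10. The medians and sign counts of both roles depend on this assignment. In the core complex, which carries the ubiquitin ligase activity of the pathway, Fance was the highest at 0.21 ± 0.20 (mean normalized count 565) in the authors' deposited table. Further core genes on the positive side were Fancg at 0.07 ± 0.26, Fancc at 0.05 ± 0.31 and Fancf at 0.02 ± 0.38 in the authors' deposited table. Core genes on the negative side were Fancb at -0.14 ± 0.38, Fanca at -0.09 ± 0.24 and the ligase subunit gene Fancl at -0.07 ± 0.37 in the authors' deposited table. The sign thus differed between genes of 1 complex, with every interval spanning 0. The pair of proteins that the core complex ubiquitinates had Fancd2 at -0.15 ± 0.19 and Fanci at -0.02 ± 0.22 in the authors' deposited table. Fancm, the translocase that brings the core complex to DNA, lay at -0.14 ± 0.18 in the authors' deposited table.

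End joining held both members with an unadjusted p below 0.05, beside genes close to 0. Polq, the DNA polymerase of theta-mediated end joining, an alternative to the classical route that uses short matching stretches, had the lowest log2 fold change of the 44 at -0.38 ± 0.16 (mean normalized count 981) in the authors' deposited table (unadjusted p = 0.0189, adjusted p = 1.00, DESeq2). This is an estimated 0.768-fold level in sgAdarb1 cells, with a 95% interval on the log2 scale from -0.70 to -0.06. Rif1, which acts with 53BP1 to hold back resection and so favours end joining, lay at -0.24 ± 0.11 (mean normalized count 3111) in the authors' deposited table (unadjusted p = 0.0397, adjusted p = 1.00, DESeq2). With the GC and length trend described below removed, Rif1 lay at -0.17, with a 95% interval from -0.39 to 0.06 (unadjusted p = 0.141), and Polq at -0.35, with an interval from -0.67 to -0.04 (unadjusted p = 0.0291). Trp53bp1, the gene of 53BP1 itself, lay at 0.01 ± 0.13 (mean normalized count 1495) in the authors' deposited table. A protein and its direct partner thus had their mRNAs at different estimates, with 95% intervals that overlap.

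The 6 genes of classical end joining were 3 negative and 3 positive, with a median of -0.02. The Ku genes lay at 0.04 ± 0.21 (Xrcc5) and -0.08 ± 0.14 (Xrcc6), and Prkdc, the catalytic subunit of DNA-PK, at -0.04 ± 0.14 in the authors' deposited table. The ligase gene Lig4 lay at -0.10 ± 0.31 and the gene of its binding partner Xrcc4 at 0.01 ± 0.24 in the authors' deposited table. Nhej1, which encodes the bridging factor XLF, lay at 0.29 ± 0.73 and had the lowest mean of the members, 34.7 normalized counts, in the authors' deposited table. For Xrcc6 and Prkdc, which had the highest means of the 6, the intervals ran from -0.36 to 0.20 and from -0.31 to 0.22.

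Damage signalling genes were 5 negative and 2 positive. Atm, the kinase that answers breaks, lay at -0.20 ± 0.12 (mean normalized count 2228) in the authors' deposited table (unadjusted p = 0.0932, DESeq2). Atr, the related kinase that answers exposed single strands, lay at 0.00 ± 0.18, and Atrip, its binding partner, at -0.07 ± 0.23 in the authors' deposited table. Their target kinases lay at -0.13 ± 0.23 (Chek1) and -0.07 ± 0.29 (Chek2) in the authors' deposited table. H2afx, the histone variant that is phosphorylated around breaks, lay at 0.02 ± 0.12, and Mdc1, which reads that mark, at -0.06 ± 0.14 in the authors' deposited table.

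The repair genes covered a wide range of levels, here given as mean normalized counts per kb of annotated exon over all libraries. H2afx was highest at 1767 per kb, followed by Rad50 at 633, Rif1 at 296 and Xrcc6 at 274 per kb in the authors' deposited table. Rad51c at 13.8, Rad51b at 21.7, Fancc at 24.6 and Atr at 28.6 per kb were lowest in the authors' deposited table. The division is by all annotated exons of a gene merged, so a gene with much annotated exon ranks low. Atr had a mean normalized count of 675, above the median of 547 over the members. By role, the median level was 156 per kb for resection and helicase genes, 102 for end joining, 80.8 for damage signalling, 65.6 for Fanconi and 62.4 for homologous recombination, against 79.5 over all members and 74.6 over the 14547 genes with a mean of 10 or more. The deposited SE was set almost wholly by the mean. For 43 of the 44 members it was within 10% of the running median SE of genes with a like mean (0.988 to 1.12 times it, Rad50 highest), and it ran from 0.11 for Rif1 to 0.73 for Nhej1. For 40 of the 44 members the 95% interval lay inside a log2 difference of 1 either way, against 64.5% of the genes with a mean of 10 or more. The median of the mean normalized count was 547 over the members and 290 over those genes, and the SE follows the mean.

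**Figure D2:**
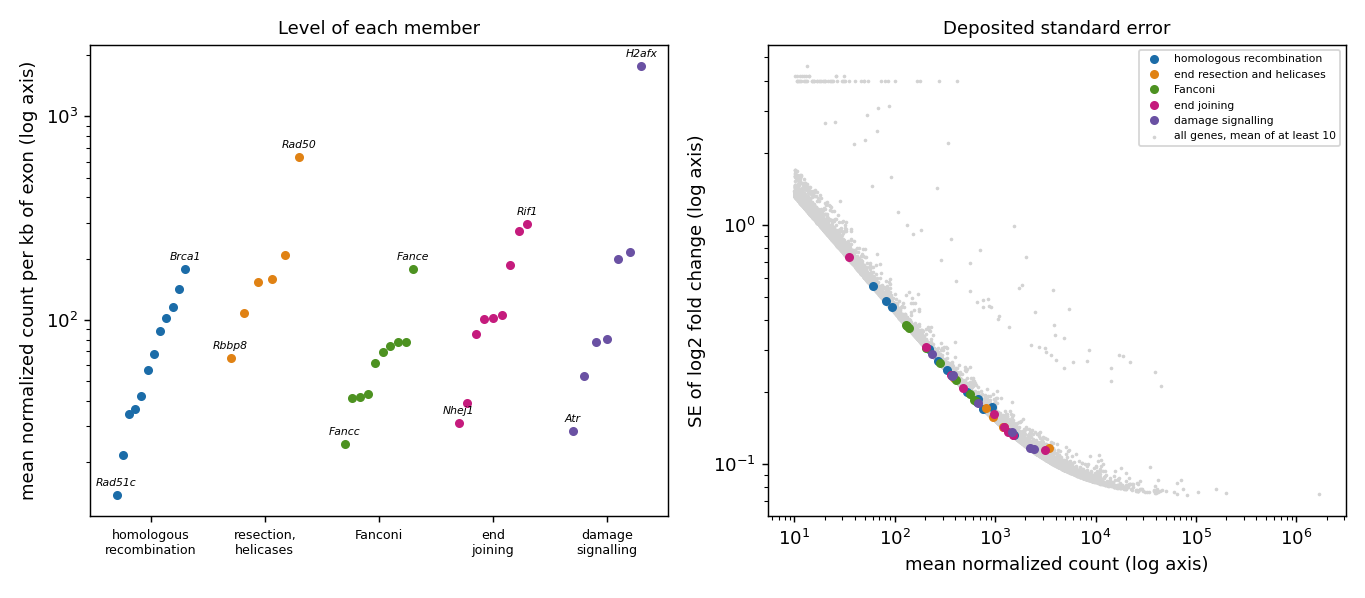
Left, the level of each member as mean normalized count per kb of exon (log axis) by role, with the lowest and highest gene of each role named. Right, deposited SE of the log2 fold change against mean normalized count (both log axes), with members coloured by role over all genes with a mean of 10 or more in grey; the members follow the lower edge of the grey band from 0.73 at Nhej1 to 0.11 at Rif1.

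Repair genes have long, GC-poor transcripts, and both properties went with the sign of the fold change. The median merged exon length was 5778 bp for the members and 3960 bp for the genes with a mean of 10 or more, and the median GC content of the longest transcript was 45.9% for the members and 49.1% for those genes. Across these genes the median log2 fold change was -0.05 in the quartile of lowest GC content and 0.05 in the quartile of highest, with 64.2% negative in the lowest and 34.0% in the highest. The members fell mostly into the lower quartiles, with 15 in the lowest (13 negative) and 17 in the next (14 negative), against 6 in each of the upper ones (3 and 2 negative). By exon length, 20 of the 44 members stood in the longest quartile, where 17 were negative against 56.5% of all genes there. Over the 44 members Spearman's rho of the log2 fold change was 0.42 with GC content, -0.41 with exon length and -0.37 with the mean normalized count. Over the 14547 genes it was 0.24 with GC content, -0.06 with exon length and 0.03 with the mean normalized count. Pearson's r with the log10 of exon length was 0.02 over those genes, so the sign of the length relation there depends on the measure. These are correlations across genes of the same 4 libraries, in which GC content and length are themselves related.

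With a loess trend on GC content and exon length removed, 33 of the 44 members were negative, against 50% of genes with a mean of 10 or more, and their median was -0.07. Homologous recombination genes stood at -0.12 with 10 of 12 negative, resection and helicase genes at -0.10 with 6 of 6, Fanconi genes at -0.03 with 7 of 10, and damage signalling genes at -0.07 with 6 of 7. End joining turned to 0.00 with 4 of 9 negative, and of its 2 members with an unadjusted p below 0.05 Polq alone kept it. Members that changed sign were Fancf (-0.040), Prkdc (0.0036) and H2afx (-0.069). No member passed at an adjusted p below 0.05 on these values either, with 1.00 as the smallest adjusted p.

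**Figure D3:**
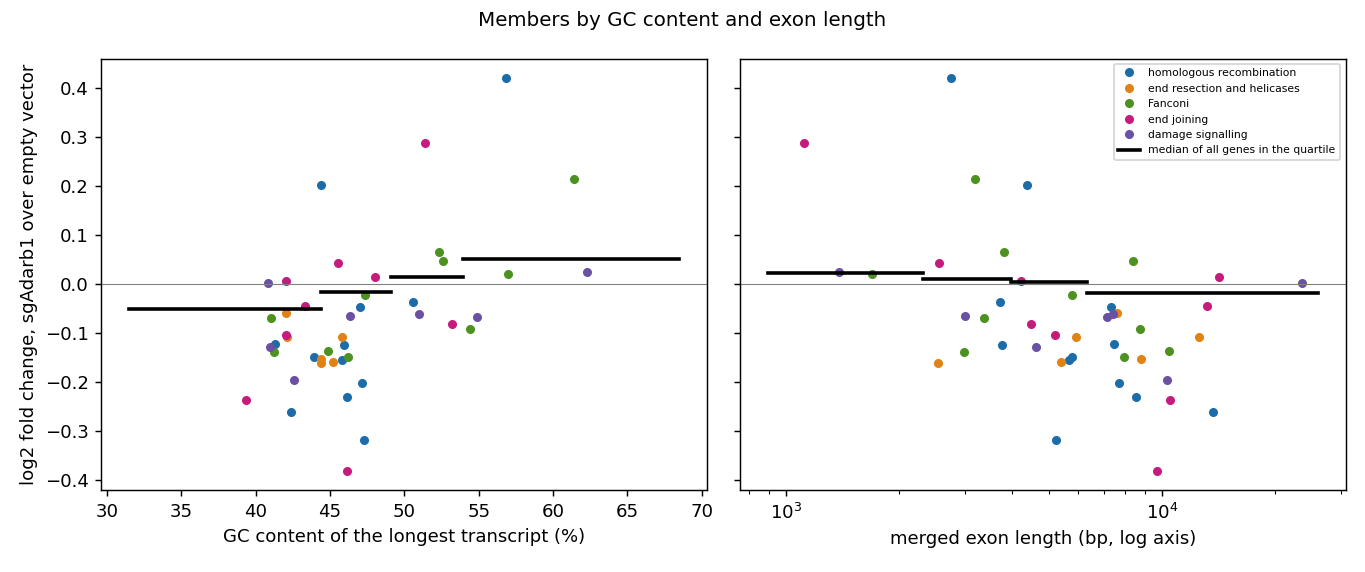
Log2 fold change of the 44 members, sgAdarb1 over empty vector, against GC content (left) and merged exon length (right, log axis), coloured by role; black bars are the medians of all genes with a mean of 10 or more in each quartile, drawn over the range of the members. In each panel 33 of the 44 members lie below the bar of their own quartile.

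Other genes of the same routes were taken from lists by function. At a minimum mean of 10 they leaned to the negative side in recombination and signalling but not in end joining or the Fanconi pathway. At a minimum mean of 500 all 4 lists leaned to the negative side. There 10 of 15 recombination genes were negative (median -0.06), 5 of 8 end joining genes (-0.06), 4 of 6 Fanconi genes (-0.05) and 12 of 13 signalling genes (-0.08). No difference between the lists was tested. Of 37 further homologous recombination genes with a mean of 10 or more, 26 were negative (median -0.05), among them Exo1, a resection nuclease, at -0.24 ± 0.17, and Abraxas1, a BRCA1 complex subunit, at -0.34 ± 0.31 in the authors' deposited table. The highest by Wald statistic were Swi5, a recombination cofactor, at 0.13 ± 0.12 and the nuclease subunit gene Slx1b at 0.45 ± 0.57 in the authors' deposited table. Of 19 further end joining genes 8 were negative (median 0.02), with Mad2l2, a shieldin subunit, at 0.55 ± 0.36, Dynll1, which binds 53BP1, at 0.13 ± 0.11, Parp1 at -0.14 ± 0.12 and the DNA ligase gene Lig1 at -0.12 ± 0.12 in the authors' deposited table. Of 17 further Fanconi genes 7 were negative (median 0.00). Among these Usp1, which removes ubiquitin from the products of Fancd2 and Fanci, lay at -0.23 ± 0.11 in the authors' deposited table (unadjusted p = 0.0410, adjusted p = 1.00, DESeq2). Rev3l, a translesion polymerase gene, lay at -0.23 ± 0.15, the nuclease gene Ercc4 at 0.16 ± 0.19 and Cenpx at 0.30 ± 0.33 in the authors' deposited table. Of 21 further damage signalling genes 16 were negative (median -0.07), with Topbp1, an activator of ATR, at -0.19 ± 0.11 and the cohesin gene Smc1a at -0.14 ± 0.12 in the authors' deposited table. On the positive side were Trp53, the gene of p53, at 0.09 ± 0.13 and the clamp gene Rad9a at 0.07 ± 0.24 in the authors' deposited table. In the 4 lists together Usp1 alone had an unadjusted p below 0.05, and no gene passed the adjusted threshold.

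Proliferation markers lay on the side of the recombination genes. Of 30, 29 were negative with a median of -0.08, and 28 were negative with the trend removed (median -0.08). Mki67 lay at -0.38 ± 0.29, Top2a at -0.19 ± 0.09 (unadjusted p = 0.0411, DESeq2) and Cenpe, a mitotic motor, at -0.29 ± 0.12 (unadjusted p = 0.0147) in the authors' deposited table. The highest by Wald statistic were Ccne1 at 0.04 ± 0.15 and Tk1 at -0.01 ± 0.17 in the authors' deposited table. Their part in the values of the repair genes was not tested, and fewer dividing cells and less RNA per cell cannot be told apart in bulk samples. Targets of p53, which answer breaks, lay the other way with 6 of 19 negative (median 0.05), with Phlda3 at 0.21 ± 0.17 and Cdkn1a, a cell cycle inhibitor, at 0.12 ± 0.10 in the authors' deposited table. The lowest by Wald statistic were Mdm2 at -0.05 ± 0.10 and Aen at -0.07 ± 0.15 in the authors' deposited table. The targeted gene Adarb1 lay at 0.11 ± 0.12 (mean normalized count 2130) in the authors' deposited table, so its mRNA checks neither the labels nor the sign.

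**Figure D4:**
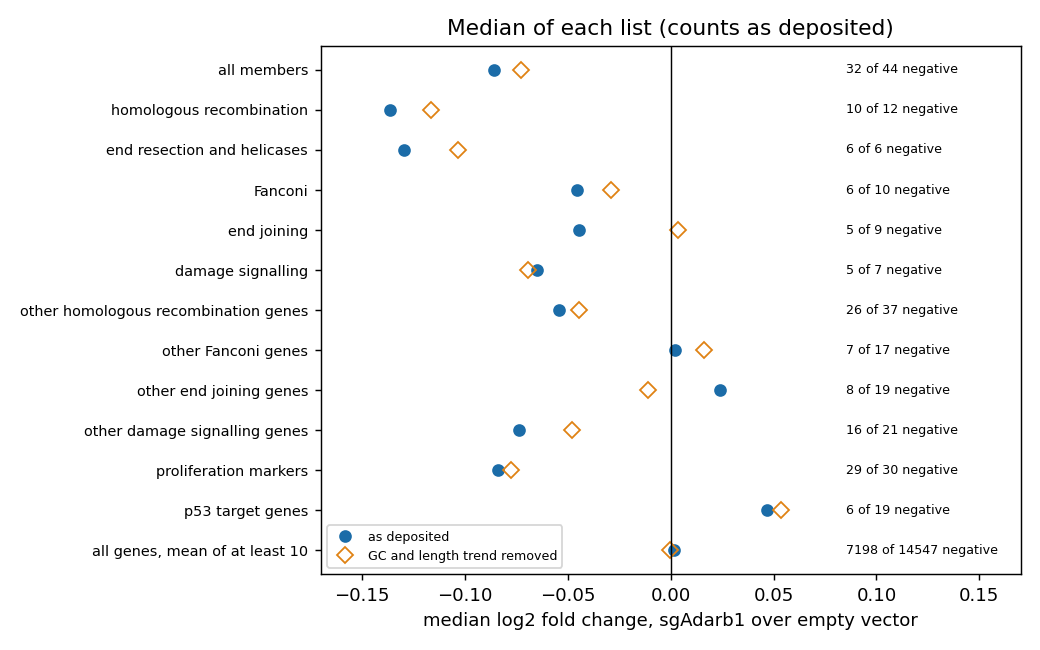
Median log2 fold change, sgAdarb1 over empty vector, of the members, of each role, of the lists of further repair genes, proliferation markers and p53 targets, and of all genes with a mean of 10 or more, as deposited (filled circles) and after removal of the GC and length trend (open diamonds). Counts at the right give the negative genes as deposited; of the lists drawn, the recombination and resection roles lie furthest to the negative side and p53 targets furthest to the positive side.

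The cultures carried T cell transcripts, where the mean normalized count was 15286 for Cd4, 5150 for Cd3e and 1756 for Il17a in the authors' deposited table. Markers of other cells were present at lower means, with 6 B cell markers summing to 2179 and the 6 myeloid and mast cell markers with a mean of 10 or more summing to 153 normalized counts, against 60885 for 13 T cell and Th17 markers. The log2 fold changes of 12 of the 13 T cell and Th17 markers were positive (median 0.07). Both with an unadjusted p below 0.05 encode Th17 cytokines. Il17a lay at 0.70 ± 0.15 in the authors' deposited table (unadjusted p = 2.9e-06, adjusted p = 0.0709, DESeq2), and its adjusted p ran from 0.0113 to 0.0709 over the alternatives. Il17f lay at 1.11 ± 0.53 in the authors' deposited table (unadjusted p = 0.0383, adjusted p = 1.00, DESeq2). Of the B cell markers 4 of 6 were negative (median -0.10, with a median SE of 0.94). Of CD8 T and NK cell markers 4 of 7 had a mean of 10 or more, and 2 of these were negative (median 0.03). Of the myeloid and mast cell markers 1 of 6 was negative, the mast cell protease gene Cpa3 at -5.66 ± 1.26 in the authors' deposited table (adjusted p = 0.0709, DESeq2, and 0.0351 to 0.0709 over the alternatives). The median of these 6 was 0.72, with a median SE of 1.21 at a median mean normalized count of 17.2. The part of any such cells in the repair values was not tested.

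Promoters were compared because recombination genes are known E2F targets, E2F being the transcription factor family that switches on S phase genes. RefSeq windows on GRCm38.p6, from 250 bases before to 50 bases after the annotated start, were found for 33 of the 44 members, and Rad51d, Xrcc2, Rad54b, Rad50, Nbn, Rbbp8, Wrn, Fancd2, Prkdc, Rif1 and H2afx had none. The letters TTTGGCGC, TTTCCCGC, TTTCGCGC or TTTGCCGC, forms of the E2F site, occurred on either strand in 7 of 33 members (21.2%), against 2.61% of the 27025 genes with such a window. Here and for the other motifs those genes were taken at any expression level, while each member had a mean normalized count of 34.7 or more. The shares are therefore not set against genes of like expression. The 7 were Brca2, Rad51c, Bard1, Fancg, Xrcc6, Chek2 and Mdc1, of which 5 were negative (median -0.07), while 17 of the other 26 were negative (median -0.08). The CCAAT box, searched as CCAAT on both strands, occurred in 20 of 33 members (60.6%) and in 41.1% of genes, and 15 of the 20 were negative (median -0.09), while 7 of the other 13 were (median -0.02). TTTGAA, the core of the CHR element of mitotic genes, occurred in 3 of 33 members (9.09%), namely Rad51b, Bard1 and Polq, and in 20.2% of genes, and all 3 were negative (median -0.16), while 19 of the other 30 were (median -0.07). None of these differences was tested. Such matches describe the letters of the window and are no evidence of binding. The windows of Brca2 and Bard1 are shown as negative recombination genes with the E2F letters, and that of Polq as the member of lowest log2 fold change. Each is written 5′ to 3′ along its gene, with matches in capitals (GCGGGAAA in Brca2 and TTTCCCGC in Bard1 for E2F, TTTGAA or its complement TTCAAA in Bard1 and Polq for CHR), at chr5:150522371-150522670 on the plus strand for Brca2, chr1:71102923-71103222 on the minus strand for Bard1 and chr16:37011536-37011835 on the plus strand for Polq.
Brca2: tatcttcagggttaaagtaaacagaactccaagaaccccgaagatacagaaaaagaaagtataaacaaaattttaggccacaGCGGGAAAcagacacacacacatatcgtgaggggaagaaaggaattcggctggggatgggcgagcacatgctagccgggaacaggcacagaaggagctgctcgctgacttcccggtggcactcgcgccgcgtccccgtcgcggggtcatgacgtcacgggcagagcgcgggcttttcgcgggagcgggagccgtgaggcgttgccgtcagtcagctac
Bard1: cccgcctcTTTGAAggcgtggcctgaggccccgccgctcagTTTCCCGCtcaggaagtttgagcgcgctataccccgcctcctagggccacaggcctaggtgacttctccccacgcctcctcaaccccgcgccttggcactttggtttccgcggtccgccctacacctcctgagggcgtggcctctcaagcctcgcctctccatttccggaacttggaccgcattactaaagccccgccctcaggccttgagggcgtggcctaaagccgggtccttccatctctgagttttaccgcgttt
Polq: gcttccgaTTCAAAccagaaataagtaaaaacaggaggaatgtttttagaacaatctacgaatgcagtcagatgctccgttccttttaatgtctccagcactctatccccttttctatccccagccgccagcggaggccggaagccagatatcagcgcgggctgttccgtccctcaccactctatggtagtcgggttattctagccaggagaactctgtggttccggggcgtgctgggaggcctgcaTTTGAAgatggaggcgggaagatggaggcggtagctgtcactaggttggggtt

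Several members share a start region or exons with a neighbour. A protein-coding gene on the opposite strand started within 1000 bp of the start of 16 members. Brca1 lay at -0.23 ± 0.13 and its neighbour Nbr1 at 0.13 ± 0.12, 194 bp away, in the authors' deposited table. Atm lay at -0.20 ± 0.12 and Npat, a histone gene activator, at -0.14 ± 0.15, while Prkdc lay at -0.04 ± 0.14 and the replication helicase gene Mcm4 at -0.13 ± 0.10 in the authors' deposited table. In 6 of the 16 pairs both genes had the same sign, with 12 of the members and 8 of the neighbours negative. Exons of 20 members overlapped a gene on the opposite strand by up to 16.4% of their exon length, and for 12 of them that gene had a mean of 10 or more. No source used here gives the strand setting of the counting, and reads of such pairs cannot be told apart without it. The largest overlaps with an expressed gene were those of Fanci with Polg (16.0%, Polg mean 1395), Rad54l with Lrrc41 (15.4%, mean 646), Trp53bp1 with Tubgcp4 (15.0%, mean 453) and Fancf with Gas2 (15.0%, mean 346) in the authors' deposited table. All exons of Trex1, a DNA exonuclease gene, lie within those of Atrip on the same strand and cover 16.0% of the exon length of Atrip. Trex1 was listed at 0 in the authors' deposited table, so no read was counted for it. Whether reads of the shared exons entered the value of Atrip was not determined. Some exons of Rad54b (35.8%) are shared with Fsbp on the same strand, which had a mean normalized count of 26.7 in the authors' deposited table.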

How the data were processed

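Per the submitters' processing notes, STAR 2.6.1a, featureCounts and DESeq2 1.18.1 were used with the mm10 build; no source used here gives the model formula, a donor term or the annotation. Per gene, the authors deposited a mean signal (counts over size factors, averaged over libraries and called the mean normalized count), a log2 fold change and its SE on the log2 scale. The authors also deposited a Wald score, a p-value and a Benjamini-Hochberg adjusted p-value. The Wald score equalled fold change over SE, and the adjusted p covered all 29383 genes with a fold change. The 4 columns of values per library match no sample label and were not used, so depths, refits with edgeR or DESeq2, donor pairing and omission of a culture were not computed. Every p is the authors' except under the alternatives. With the trend removed, p was computed here from the altered fold change over the deposited SE, with a Benjamini-Hochberg adjustment. For adjustment over fewer genes the authors' unadjusted p was adjusted again here in the same way.

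All 55450 identifiers matched GENCODE M21 (mm10), the source of symbols, positions and exons. Members and gene lists were chosen with earlier results of these data known, and lists are described by counts and medians with no set test. Genes outside the 44 were named by Wald statistic, 2 highest and 2 lowest of each repair, proliferation and p53 list with a mean of at least 50, and by an unadjusted p below 0.05, and Adarb1, Trp53, Mki67, Top2a and Cdkn1a were named by the same rule; marker genes of cell types, among them Il17a, Il17f and Cpa3, and neighbours were chosen after their values were seen. Shld3 was not matched, and Dmc1 had a mean of 0. The trend was a loess fit (R 4.3.3, span 0.3, degree 1) over 14547 genes, tested on simulated data; other steps used Python 3.11.15 with scipy 1.17.1. Intervals of 95% are fold change ± the normal quantile times SE. Alternatives changed the adjustment, minimum mean, summary, scaling and trend. Some genes of the lists are not reported here by name.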

Additional observations from a re-analysis of the deposited data

How the results depend on the processing

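Against 0 members past the threshold, 0 passed when only genes of a mean of 10 or more, or of 50 or more, were adjusted for, at an adjusted p below 0.1 or with the GC and length trend removed, and 2 had an unadjusted p below 0.05. The median of all members was negative under every setting run, from -0.12 to -0.07. That of homologous recombination ran from -0.18 to -0.11, that of resection and helicases from -0.16 to -0.10, that of damage signalling from -0.07 to -0.03 and that of Fanconi genes from -0.14 (minimum mean of 500) to -0.03, so the order of the roles depends on the setting. The median of end joining genes ran from -0.08 (minimum mean of 500) to 0.00 (trend removed), where its sign turned. Their mean weighted by inverse squared SE was -0.11. Adjustment over fewer genes leaves a fold change as it is; 3 genes of the whole table then passed at a minimum mean of 10 and 2 at a minimum mean of 50, none of them a member. Of 74 named genes 0 changed sign relative to the median of genes, and 3 did with the trend removed, namely Fancf (-0.040), Prkdc (0.0036) and H2afx (-0.069); the cause was not tested. Removal of the GC or the length trend alone, the omission of members that overlap a gene on the opposite strand and the use of 1 promoter per gene were chosen after seeing the data. No paired analysis was possible because no column of single libraries bears a sample's label. Refits, groups from the treatment tag and omission of a replicate were not run for that reason. Depths per library were not used, so the deposited SE limits what was detectable.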
